A study of Bos taurus with 12 samples.

Results

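The genes described here are the WNT ligands, their receptors and the genes that carry or damp the WNT signal in the bovine blastocyst. They were chosen by symbol: every gene whose symbol begins with WNT or with FZD and a number, together with LRP5, LRP6, ROR1, ROR2, DKK1, DKK3, SFRP1, SFRP2, PORCN, DVL1 to DVL3, AXIN1, AXIN2, APC, GSK3A, GSK3B, CSNK1A1, TCF7, TCF7L1, TCF7L2, LEF1, RNF43 and ZNRF3. In total, 53 of the 32637 genes of the count table met this rule. All 53 are annotated as protein-coding genes of the ARS-UCD2.0 assembly, and PORCN is the only member on the X chromosome. By role, they are 19 ligands, 10 frizzled receptors, 4 co-receptors (LRP5, LRP6, ROR1 and ROR2), 4 secreted inhibitors (DKK1, DKK3, SFRP1 and SFRP2), 2 receptor ubiquitin ligases (RNF43 and ZNRF3), 3 dishevelled proteins, 6 genes of the destruction complex (AXIN1, AXIN2, APC, GSK3A, GSK3B and CSNK1A1), 4 TCF/LEF factors and PORCN.

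The study compared female with male bovine embryos that had been fertilized in vitro and had reached the expanded blastocyst stage on Day 7 or Day 8 of culture. Oocytes came from ovaries of slaughtered cows, and semen of different bulls was used in rotation. RNA was sequenced from 6 female and 5 male pools, and each pool held cut pieces of 2 embryos that a PCR had assigned to the same sex. The labels give no engineered allele and no treatment, so sex was the only labelled difference between the groups, and each pool mixed inner cell mass with trophectoderm.

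WNT proteins are secreted ligands that carry a lipid added by the acyltransferase PORCN, and they bind frizzled receptors together with co-receptors at the cell surface. In cells without a WNT signal, a destruction complex of AXIN, APC and the kinases GSK3 and casein kinase 1 marks beta-catenin for degradation. Upon ligand binding, dishevelled proteins block that complex, and beta-catenin enters the nucleus to act with TCF/LEF factors. Other WNT ligands act without beta-catenin, for example through ROR receptors, and the pathway is studied in the bovine blastocyst for its part in the growth and lineage decisions of the early embryo.

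Counted reads ranged from 6664112 to 16162985 per library in females and from 9942952 to 21392764 in males. A count of 3, taken as the limit of detection, equalled 0.145 to 0.413 CPM (a gene's count scaled to a common library size) depending on the library. Male replicate 5 stood apart, as it had the most counted reads (21392764) but the fewest genes with a count (14937, against 16985 to 18550 in the other libraries). The labelled sex was matched in every pool. XIST, the RNA that silences an X chromosome, averaged 137 ± 86.8 CPM in the 6 female pools (SD, range 52.3 to 261). It averaged 2.02 ± 1.57 CPM in the 5 male pools (SD, range 0.745 to 3.97). The Y-linked DDX3Y was at most 1.89 CPM in females and at 126, 96.8, 152, 105 and 31.9 CPM in the male pools, lowest in male replicate 5. USP9Y and ZFY were lowest among males there as well, but EIF1AY was lowest in another male pool. All 6 measured inner cell mass markers and all 10 trophectoderm markers were detected above 3 counts in every library. The summed level of the inner cell mass markers ranged from 560.0 to 981 CPM in females and from 791 to 1080 CPM in males, and that of the trophectoderm markers from 7890 to 23200 CPM and from 9200 to 36100 CPM. The upper male limit was male replicate 5 alone, with KRT8, a keratin of the trophectoderm, at 20100 CPM, and without it the male sums reached at most 20200 CPM. Hypoblast markers summed to 228–621 CPM and 208–467 CPM. These sums mostly follow the abundant markers of a list. POU5F1 of the inner cell mass list averaged 345 CPM in females and 464 CPM in males, whereas SOX2 averaged 3.74 and 3.77 CPM. How far the sums follow the share of each cell type was not tested. Of the 7 cumulus and granulosa cell markers, FSHR exceeded 3 counts in all 11 libraries and averaged 13.1 CPM in females and 9.99 CPM in males. CYP19A1 exceeded 3 counts in 10 libraries, TNFAIP6 in 9, HAS2 in 7 and INHA in 1, while AMH and FOXL2 never did. The summed levels of this list were 7.20–32.6 CPM in females and 5.38–29.5 CPM in males. None of these cell type markers was called by edgeR. At an unadjusted p under 0.05, PTGS2 of the trophectoderm list (log2 fold change -1.20, edgeR adjusted p = 0.166) and CYP19A1 of the cumulus list (log2 fold change -1.67, edgeR adjusted p = 0.241) were lower in males, and their part in the values of the WNT genes was not tested.

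Expression of the WNT genes ran from members detected in every library to near-silent ones, with many members detected in only some libraries. In total, 22 of the 53 members exceeded 3 counts in all 11 libraries, 7 never exceeded 3 counts in any, and 4 of those 7 had no count at all. A filter on low counts left 30 members for testing and removed 23. A gene could pass this filter through the pools of a single sex. All 6 destruction complex genes exceeded 3 counts in every library, whereas only 2 of the 19 ligands, WNT5A and WNT6, did so. Levels are given as CPM scaled with TMM factors, which are not corrected for transcript length, so levels of different genes are not ranked here.

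**Figure D1:**
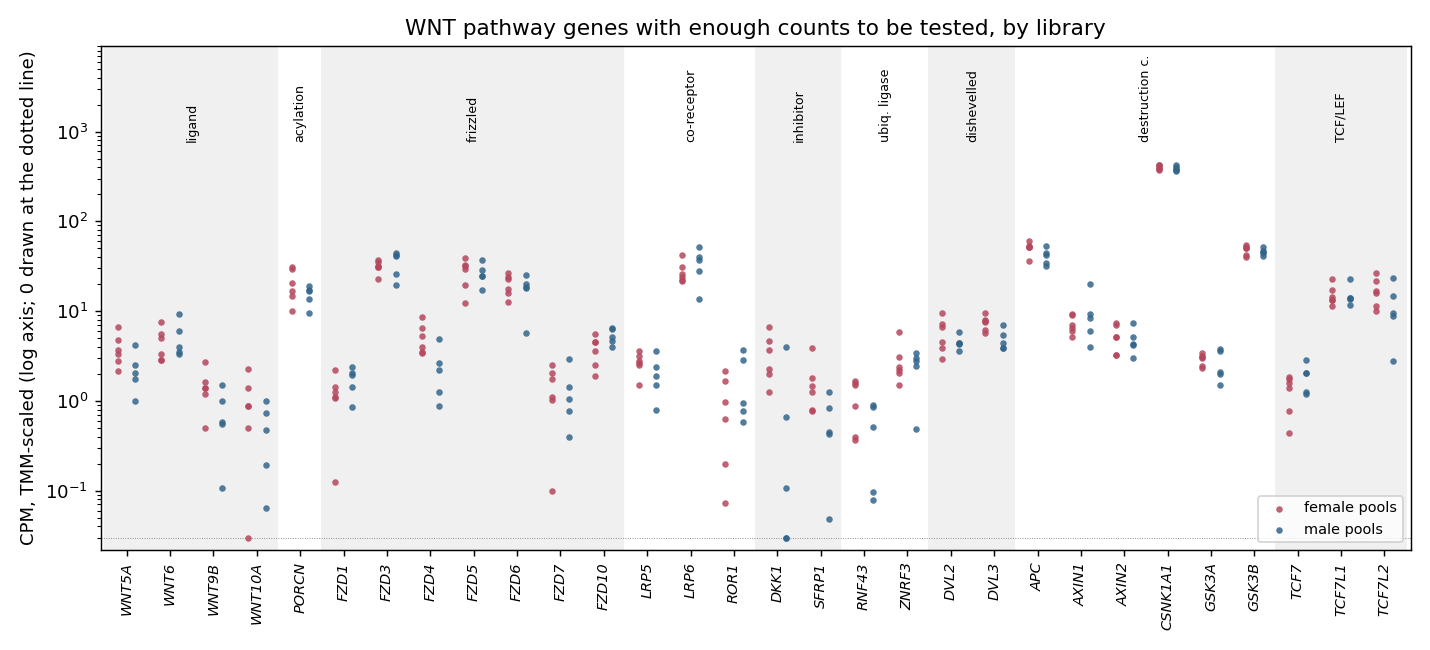
Level of each tested WNT gene in every library, as TMM-scaled CPM on a log axis, with 6 female and 5 male pools as points and values of 0 drawn at the dotted line. Female and male points overlap for all 30 genes, and the DKK1 points reach 0 in 2 of the male pools.

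To find whether the sexes differed in these genes, males were compared with females by the edgeR quasi-likelihood test, blocked on the library number (the leading number of a library name, with the values 1, 2 and 3). Calls required a false discovery rate (FDR) below 0.1 as well as a fold change above 1.5. None of the 30 tested members was called, whereas 1.91% of all 12802 tested genes were (245 genes, with 1.5% higher in females and 0.414% higher in males). At an unadjusted p under 0.05, 4 members stood below that level, DKK1, FZD4, RNF43 and DVL3, beside 13.2% of all tested genes. All 4 were lower in males, a direction that 6.95% of all tested genes shared at this threshold. Of the 4, DKK1 passed the filter on low counts only through its female pools. DESeq2 with the same block called 1 member, DKK1, beside 4.17% of the genes it tested.

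Signs leaned to the female side. The estimated difference was lower in males for 21 of the 30 members and higher for 9, beside 49.5% lower among all tested genes. The median log2 fold change (male over female) was -0.16 for the members, 0.02 for the 12172 autosomal tested genes and -0.85 for the 476 X-linked ones. As most intervals of the members included 0, these counts describe signs of estimates. In libraries made from whole pieces of embryos, fewer cells of a type and less RNA per cell cannot be told apart.

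The 95% interval of the fold change lay within 1.5-fold in either direction for only 4 members (CSNK1A1, GSK3B, FZD5 and TCF7L1), beside 17.9% of all tested genes. For WNT10A and FZD7, the interval spanned more than 2-fold in both directions. The other members thus had sex differences that these 11 pools bounded loosely. Spread between pools was similar to that of other genes, with a median coefficient of variation of 40.4% across the members and 34.7% across all tested genes, and it ran from 5.75% for CSNK1A1 to 95.6% for DKK1.

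**Figure D2:**
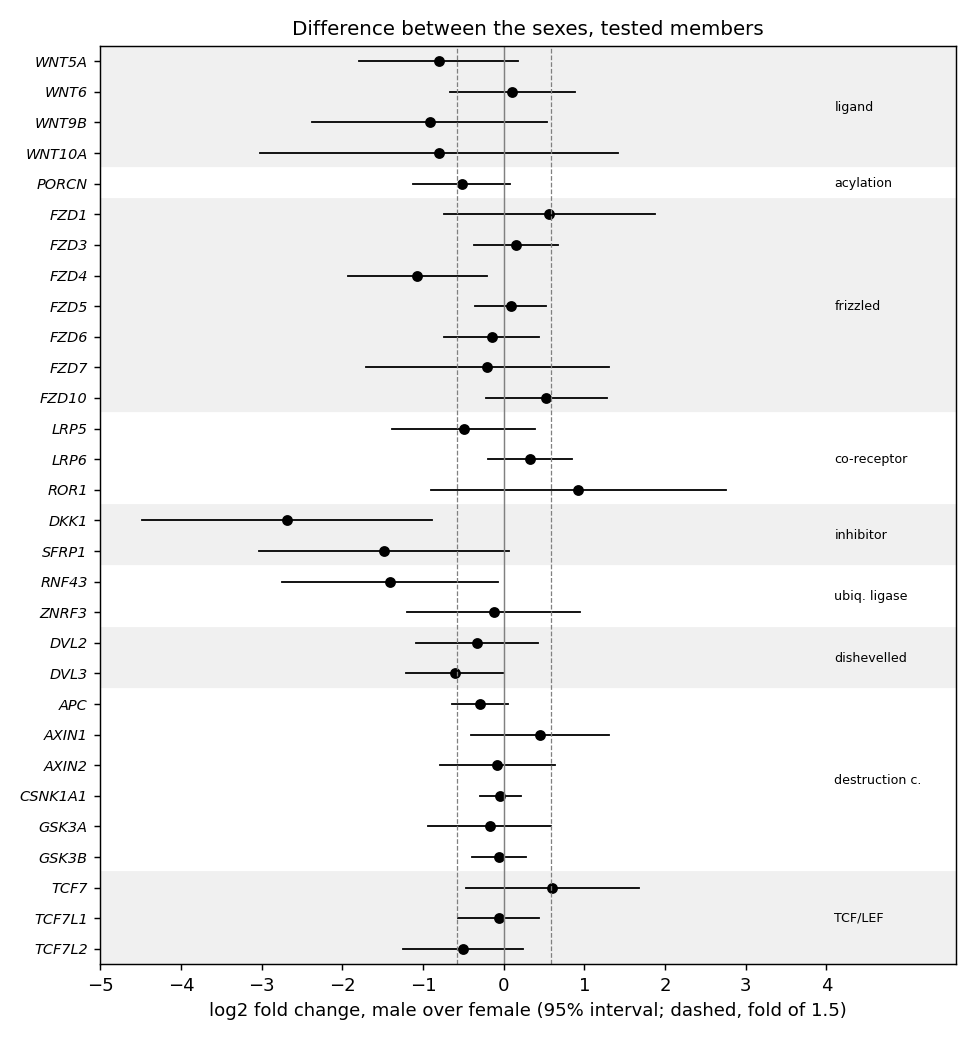
Log2 fold change of males over females for each tested WNT gene with its 95% interval from the edgeR fit, grouped by role, with dashed lines at a fold change of 1.5. The intervals of DKK1, FZD4, RNF43 and DVL3 lie below 0, and that of DKK1 runs from -4.48 to -0.89.

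Among the ligands, transcripts were few. WNT1, WNT3A, WNT7B and WNT8B had no count in any library, which allows up to 0.145 CPM in the deepest library and up to 0.413 CPM in the shallowest. WNT2 and WNT7A had a single count each in 1 female pool. These limits describe counting error alone, because the reads carried no molecular identifiers and need not be independent molecules.

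WNT6, a ligand known from epithelial tissues, was detected in every pool. In females its level ranged from 2.82 to 7.54 CPM with a median of 4.15 CPM. In male replicates 1 to 5, it was 5.96, 3.49, 3.35, 3.97 and 9.25 CPM. The male values lay across the female range and beyond it in male replicate 5, and the log2 fold change was 0.10 (SE 0.36, edgeR adjusted p = 0.936).

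WNT5A, the best known ligand of the beta-catenin-independent branch, was detected in every pool as well. Females ranged from 2.13 to 6.62 CPM (median 3.53). Males were at 0.993, 4.23, 1.74, 2.54 and 2.04 CPM. In 4 of the 5 male pools the level was below the female median, but the ranges overlapped, and the log2 fold change of -0.81 (SE 0.45, interval -1.79 to 0.17) did not pass the test (edgeR adjusted p = 0.480).

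WNT9B and WNT10A were tested at lower levels, near the limit of detection in some pools. WNT9B averaged 1.47 ± 0.731 CPM in females (SD, n = 6, as for the means below) and 0.747 ± 0.526 CPM in males (SD, n = 5), with a log2 fold change of -0.92 (SE 0.67). WNT10A averaged 0.980 ± 0.773 CPM and 0.494 ± 0.382 CPM, with a log2 fold change of -0.80 (SE 1.02) that moved to -0.02 without male replicate 3 and to -1.46 without female replicate 1. Neither was distinguishable from 0, with edgeR adjusted p-values of 0.607 and 0.792. WNT6 and WNT10A lie next to each other on chromosome 2 with a gap of 7120 bases, and female replicate 1, which had the highest female WNT6 level (7.54 CPM), had no WNT10A count.

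The remaining ligands were too sparse to test, and the counts of several were concentrated in a few pools. WNT16 had 0, 6, 15, 1, 3 and 3 counts in the female pools and 0, 10, 21, 11 and 59 in the male pools. WNT2B had 3 to 10 counts in females and 1, 28, 18, 13 and 12 in males. Male replicate 1 had at most 1 count of either gene. Scaled to library size, WNT2B ranged from 0.413 to 0.762 CPM in females and was at 0.0827, 2.96, 1.16, 1.03 and 0.581 CPM in males, so that 3 male pools were above all females and male replicates 1 and 5 were below the female median (0.615 CPM). WNT5B had 2 to 24 counts in females and 0, 9, 9, 0 and 36 in males. Its gene overlaps FBXL14 (2931 counts in all), and WNT2B overlaps ST7L (1040 counts). The library kit does not mark strand, so reads in the shared stretches cannot be told apart.

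**Figure D3:**
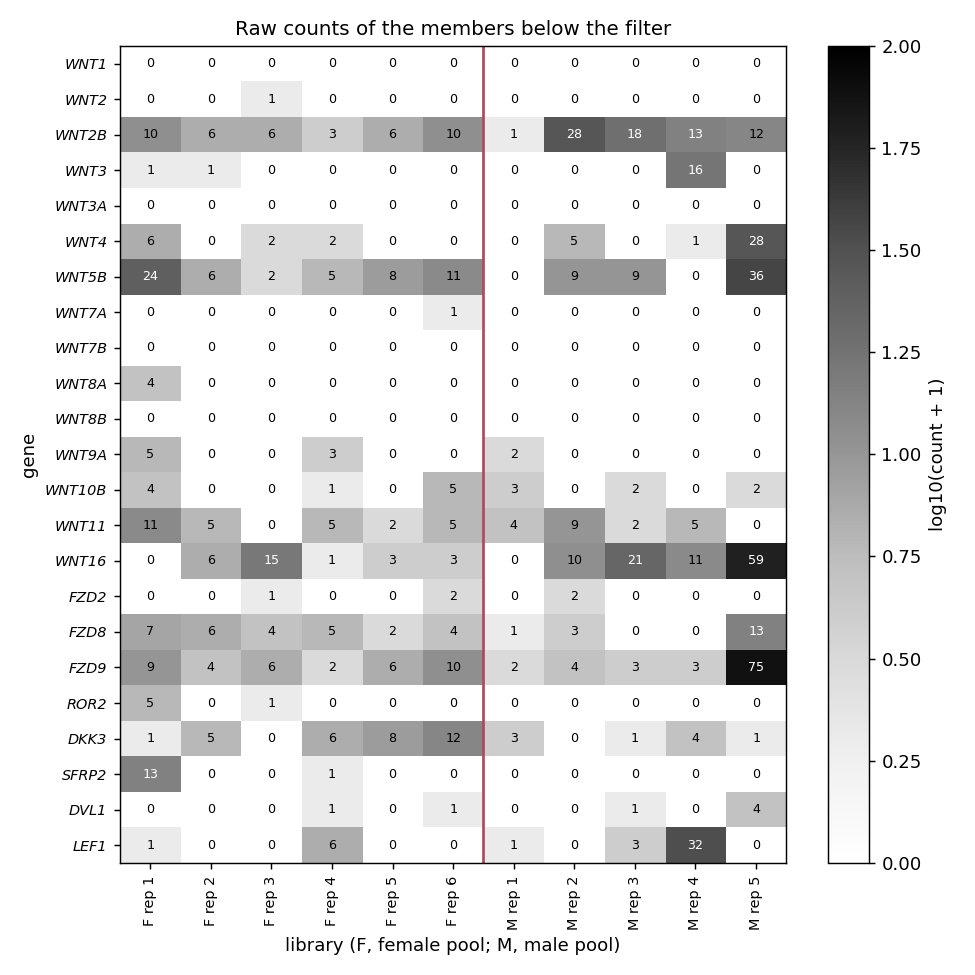
Raw counts of the 23 untested WNT genes in each library, with the 6 female pools left and the 5 male pools right of the red line. Most cells are at or near 0, and the largest counts are FZD9 (75), WNT16 (59) and WNT5B (36), all in male replicate 5.

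PORCN (X:86646281-86656871), which makes WNT ligands fit for secretion, was the only member exposed to a difference in X chromosome number. Females ranged from 10.1 to 31.1 CPM with a median of 18.7 CPM. Males were at 18.9, 13.8, 9.46, 16.6 and 17.0 CPM. The male pools lay within the span of the females except for male replicate 3. The log2 fold change was -0.52 (SE 0.27, interval -1.12 to 0.08, edgeR adjusted p = 0.453), so that neither equal levels nor the median of the X-linked genes (-0.85) lay outside the interval.

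Of the 10 frizzled receptors, which bind WNT ligands through a cysteine-rich domain, 7 were tested. FZD3 ranged from 22.8 to 36.7 CPM in females (median 31.2) and was at 25.6, 42.6, 41.6, 44.0 and 19.6 CPM in males. The male pools thus spread on both sides of the female range, and the log2 fold change was 0.15 (SE 0.24, edgeR adjusted p = 0.844). FZD5 averaged 27.5 ± 9.75 CPM in females and 26.5 ± 7.16 CPM in males, with an interval of -0.35 to 0.52 on the log2 scale. FZD6 averaged 19.9 ± 5.42 and 17.4 ± 7.16 CPM.

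FZD4 (29:8618154-8623002), which also serves as the receptor of norrin, was the frizzled gene with the lowest p-value and was chosen for description after its values were seen. Female pools ranged from 3.37 to 8.50 CPM (median 4.59). Male pools were at 2.23, 1.27, 4.89, 2.62 and 0.872 CPM. All males except replicate 3 were below every female pool. The log2 fold change was -1.07 (SE 0.40, interval -1.93 to -0.21), with an unadjusted p from edgeR of 0.0188 and an adjusted p of 0.266.

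FZD1, FZD7 and FZD10 were tested at lower counts. FZD10 averaged 3.76 ± 1.39 CPM in females and 5.33 ± 1.04 CPM in males, with a log2 fold change of 0.53 (SE 0.35). FZD1 and FZD7 had log2 fold changes of 0.56 (SE 0.60) and -0.20 (SE 0.69). The 3 adjusted p-values from edgeR were between 0.561 and 0.934. FZD2 never exceeded 3 counts. FZD9 had 2 to 10 counts in every pool other than male replicate 5, which had 75, and FZD8 had 13 counts in the same pool and 0 to 7 in the others.

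Among the co-receptors, LRP6, which pairs with frizzled receptors in beta-catenin signalling, ranged from 21.5 to 42.2 CPM in females (median 25.2) and was at 37.2, 39.9, 52.1, 27.7 and 13.6 CPM in males. The highest and the lowest pools were both male, and the log2 fold change was 0.33 (SE 0.24, edgeR adjusted p = 0.607). LRP5, its paralog, ranged from 1.51 to 3.58 CPM in females and from 0.795 to 3.56 CPM in males (log2 fold change -0.49, SE 0.41). ROR1, a receptor of WNT5A, was more variable, at 0.944 ± 0.815 CPM and 1.77 ± 1.41 CPM. Its log2 fold change of 0.92 (SE 0.84) became 0.36 without male replicate 5. ROR2 had 5 counts in 1 female pool, 1 in another and none in the rest.

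Among the tested members, the largest estimated difference was that of DKK1, a secreted inhibitor. DKK1 (26:6846855-6849305) encodes an antagonist that binds LRP5 and LRP6 and keeps them from WNT ligands. Female pools had 49, 21, 91, 34, 20 and 20 counts, or 3.73, 2.28, 6.61, 4.68, 2.00 and 1.26 CPM. Male pools had 8, 1, 62, 0 and 0 counts, or 0.662, 0.106, 3.99, 0 and 0 CPM. DKK1 was thus above 3 counts in all 6 female pools but in only 2 of the 5 male pools. Male replicate 3, with 62 counts, overlapped the females, while the other 4 male pools were below the lowest female value.

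DKK1 passed the filter on low counts through its female pools, since too few male pools had enough counts. Its place among the tested genes thus depended on the group in which it was high. The log2 fold change of DKK1 was -2.69 (SE 0.83, interval -4.48 to -0.89), with an unadjusted p of 0.00677 and an adjusted p of 0.173 in the edgeR test. It was lower in males in all 3 library numbers. For number 1, the females were at 2.28 and 3.73 CPM and the males at 0.106 and 0.662 CPM. For number 2, the females were at 4.68 and 6.61 CPM and the single male pool at 3.99 CPM. For number 3, the females were at 1.26 and 2.00 CPM and both male pools had no count. A difference of DKK1 between the library numbers did not pass the edgeR test (unadjusted p = 0.00985, adjusted p = 0.693), although number 2 held the highest pools of each sex.

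The call for DKK1 turned on the fit. It was called at an adjusted p of 0.00703 by DESeq2 with the library number as block, at 0.0039 by DESeq2 with both numbers of the library name combined as block (4.4% of all genes called), and at 0.00124 by edgeR with all genes of 1 or more counts kept (3.11% called). With both numbers as separate terms, a fit chosen after seeing the data, DESeq2 called 2 members, DKK1 and FZD4 (5.49% of all genes called). It called 837 genes in all, 231 higher in males and 606 higher in females, and the DESeq2 adjusted p of FZD4 was 0.0216. Without a block, no member was called by edgeR (2.55% of all genes called) or DESeq2 (4.62% called), and the log2 fold change of DKK1 was -1.81 with an adjusted p of 0.449 by edgeR. By edgeR, no member was called with both numbers combined (187 genes called in all) or as separate terms (297 genes). The same held for edgeR with other scaling factors (247 and 261 genes) and with a stricter filter on low counts (248 genes). Across the settings with all 11 libraries, the adjusted p of DKK1 by edgeR or DESeq2 ran from 0.00124 to 0.527. In the edgeR fit with the library number as block, 1 library was left out at a time. This gave log2 fold changes from -4.03 (without male replicate 3) to -2.17 (without male replicate 5), at edgeR adjusted p-values from 0.109 to 0.338. The fits that called DKK1 were not repeated in this way. The direction was the same in all of these fits, while the size moved by more than 1.5-fold.

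**Figure D4:**
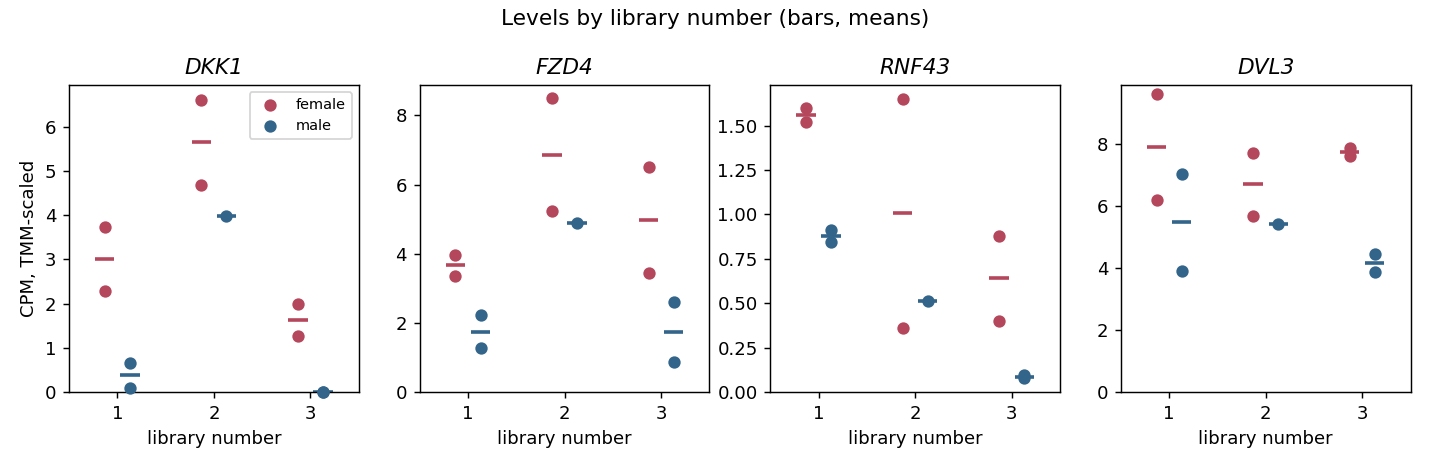
TMM-scaled CPM of DKK1, FZD4, RNF43 and DVL3, the members with the smallest unadjusted p-values, for female and male pools at each library number, with bars at the means. For DKK1 and FZD4 every female pool is above every male pool of the same number, and number 2 has the highest mean for each sex.

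No tested member had female and male pools that did not overlap at all, beside 3.31% of all tested genes. Within each library number, DKK1 and FZD4 did not overlap, with females above, which is 2 of 30 members beside 7.44% of all tested genes (4.18% with females above). For FZD4, the females were at 3.37 and 3.96 CPM against 1.27 and 2.23 CPM in males for number 1, at 5.23 and 8.50 against 4.89 CPM for number 2, and at 3.46 and 6.50 against 0.872 and 2.62 CPM for number 3. The share of members without overlap was near that of other genes. What the library number stands for is not stated in the labels.

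SFRP1, which binds WNT ligands directly, was the second inhibitor tested. Its level ranged from 0.762 to 3.91 CPM in females (median 1.34) and was 0.827, 0.423, 0.451, 1.27 and 0.0485 CPM in males. Only male replicates 1 and 4 reached the female range. The log2 fold change was -1.49 (SE 0.71, interval -3.04 to 0.07, edgeR adjusted p = 0.400), and it ran from -2.18 without male replicate 4 to -0.997 without female replicate 2. DKK3 had 0 to 12 counts in females and 3, 0, 1, 4 and 1 in males, and SFRP2 had 13 of its 14 counts in female replicate 1.

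RNF43 and ZNRF3 encode ubiquitin ligases that remove frizzled receptors from the cell surface. RNF43 (19:9321721-9388420) ranged from 0.363 to 1.65 CPM in females (median 1.20), and was at 0.910, 0.845, 0.515, 0.0795 and 0.0969 CPM in males. Male replicates 4 and 5 had only 1 and 2 counts, and the other males lay among the females. The log2 fold change was -1.41 (SE 0.62, interval -2.75 to -0.07), with an unadjusted p of 0.0406 and an adjusted p of 0.351 from edgeR. ZNRF3 was at 1.51 to 5.81 CPM in females (median 2.28), and at 3.39, 2.43, 2.77, 3.02 and 0.485 CPM in males. Except for male replicate 5, its male pools lay inside the female range (log2 fold change -0.12, SE 0.49, edgeR adjusted p = 0.947).

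Of the dishevelled genes, which relay the signal from the receptor, DVL1 was almost absent, with at most 4 counts in a library. DVL3 (1:82980605-82996884) ranged from 5.67 to 9.60 CPM in females (median 7.65). In males it was at 7.03, 3.91, 5.41, 4.45 and 3.88 CPM. All male pools except replicate 1 were below the lowest female pool. Its log2 fold change was -0.61 (SE 0.28, interval -1.21 to -0.01), with an unadjusted p of 0.0481 and an adjusted p of 0.371 from edgeR. DVL2 averaged 5.75 ± 2.42 CPM in females and 4.48 ± 0.805 CPM in males (log2 fold change -0.33, SE 0.35).

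The destruction complex was detected throughout, and CSNK1A1 and GSK3B varied little. CSNK1A1, the casein kinase that primes beta-catenin, was between 374 and 427 CPM in females (median 406) and at 362, 375, 384, 425 and 404 CPM in males. The pools of both sexes were interspersed, and the interval of the log2 fold change, -0.29 to 0.21, kept any difference within 1.5-fold. GSK3B averaged 48.2 ± 5.95 CPM in females and 45.8 ± 3.68 CPM in males, with an interval of -0.40 to 0.27. GSK3A averaged 2.91 ± 0.421 and 2.59 ± 1.02 CPM.

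APC, the scaffold of the complex, averaged 50.8 ± 8.02 CPM in females and 41.0 ± 8.07 CPM in males (log2 fold change -0.29, SE 0.16, edgeR adjusted p = 0.470). AXIN2, a common transcriptional target of beta-catenin as well as a member of the complex, averaged 5.19 ± 1.79 and 4.80 ± 1.59 CPM (log2 fold change -0.08, SE 0.33, edgeR adjusted p = 0.948). Its interval, -0.79 to 0.63, still allowed differences above 1.5-fold either way. AXIN1 was the only gene of the complex with a higher estimate in males (log2 fold change 0.45, SE 0.39, edgeR adjusted p = 0.680). That estimate rested on male replicate 5, at 19.9 CPM against 3.97 to 9.38 CPM in all other pools, and it was -0.09 without that pool.

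Of the TCF/LEF factors, TCF7L1, which mostly represses targets in the absence of beta-catenin, ranged from 11.5 to 22.8 CPM in females (median 13.8) and was at 14.1, 14.1, 11.8, 13.7 and 23.0 CPM in males. The sexes had nearly the same range, and the interval of the log2 fold change was -0.57 to 0.44. TCF7L2 ranged from 9.90 to 26.7 CPM in females (median 16.3) and was at 14.6, 9.51, 23.6, 8.74 and 2.81 CPM in males. Its lowest level was in male replicate 5, and the log2 fold change was -0.51 (SE 0.34, edgeR adjusted p = 0.570). TCF7 averaged 1.29 ± 0.569 and 1.88 ± 0.687 CPM (log2 fold change 0.60, SE 0.49). LEF1 had 32 of its 43 counts in male replicate 4 and at most 6 in any other pool.

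The library number was also examined in its own right, with the sex in the model. Only 1 of the 12802 tested genes passed an FDR of 0.1 (0.00781%), and it was not a member. At an unadjusted p under 0.05, there were 4 members, FZD5 (0.00663), DKK1, TCF7L2 (0.024) and LRP6 (0.0259), beside 6.93% of all tested genes, and each had an edgeR adjusted p of 0.693. FZD5 was at 29.8 to 38.9 CPM in females of numbers 1 and 2 and at 12.4 and 19.3 CPM in those of number 3. Its highest male level, 36.8 CPM, was in the pool of number 2, but the males of number 3, at 24.9 and 17.2 CPM, included one at about the level of male replicate 2 of number 1 (24.8 CPM).

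Male replicate 5 held an extreme value for many genes, members and others alike. It was the highest of the 11 libraries for 6 of the 30 tested members and the lowest for 10, and over all tested genes it was the highest for 24.9% and the lowest for 26.8%. Without this pool, FZD4 had a log2 fold change of -0.84 and TCF7L2 of -0.23. The part of this pool's low gene number in these values was not tested.

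A further 69 genes of the pathway were examined, covering R-spondins and their receptors, other secreted inhibitors, beta-catenin and its partners, planar polarity genes and common targets. Of these, 68 were in the table and 41 were tested. None was called by edgeR, and DESeq2 with the library number called 3 (beside 4.17% of all genes it tested). At an unadjusted p under 0.05 there were 4, beside 13.2% of all tested genes. Estimates were lower in males for 26 and higher for 15, beside 49.5% lower over all tested genes, with a median log2 fold change of -0.09. CTNNB1, which encodes beta-catenin, averaged 310.0 ± 30.2 CPM in females and 344 ± 60.0 CPM in males (log2 fold change 0.14, interval -0.18 to 0.47).

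The 4 genes were ATP6AP2, PRICKLE3, BCL9L and AMER1, all lower in males, and all except BCL9L are X-linked. GPC4, the remaining X-linked gene tested, had a higher estimate in males (log2 fold change 1.97, SE 0.97, unadjusted p from edgeR 0.0648), and edgeR called it with all genes of 1 or more counts kept. They are named because they are few, after their values were seen. ATP6AP2, a proton pump subunit that links LRP6 to frizzled receptors, ranged from 454 to 682 CPM in females and was at 420.0, 484, 440.0, 414 and 202 CPM in males (log2 fold change -0.67, SE 0.20, edgeR adjusted p = 0.166). BCL9L, a co-activator of beta-catenin, ranged from 4.54 to 7.30 CPM in females and was at 5.21, 3.28, 2.32, 3.34 and 1.36 CPM in males (log2 fold change -1.10, SE 0.35, edgeR adjusted p = 0.194). In ATP6AP2 and in BCL9L, 1 male pool reached into the female range and the other 4 were below it.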

How the data were processed

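RNA was amplified from 11 pools as full-length cDNA with a kit that does not mark strand. Trimming (fastp 0.20.0), alignment to ARS-UCD (STAR 2.7.10b) and counting per gene (featureCounts) were done by the authors, who deposited whole-number counts without normalization. Every library was used, with sex and replicate number taken from the sample labels. The members and lists were chosen with earlier results of these data known.

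The edgeR package (4.0.16, R 4.3.3) was used for filtering (filterByExpr by sex, leaving 12802 genes), TMM scaling and the quasi-likelihood test of sex. The library number served as block in place of the collection week, the covariate of the study's own DESeq2 test. Adjustment was by Benjamini-Hochberg over all tested genes, and a positive log2 fold change means a higher level in males. Biological variation between pools had a common coefficient of 0.403. Alternatives used DESeq2 1.42.0, other blocks, factors and filters, and each library left out in turn. Pools were the replicates. In fits with a block, the p-values set the difference between the sexes against the spread between pools left after the block was fitted.

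The rule for values by library took members called in any planned fit of all libraries, the X-linked member and the member with the highest mean CPM of its role. The other members given by library were chosen after their values were seen, and females are mostly given by lowest, median and highest value. Symbols were matched to RefSeq (ARS-UCD2.0) for 30271 of 32637 genes, with coordinates counted from 1. Of the members, 14 overlap another annotated gene. Exon lengths and sequences were not used here. The fitting code was tested on simulated counts.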

Additional observations from a re-analysis of the deposited data

Results flagged for a closer look

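In 5 of the 60 groups examined (30 genes in each sex, 8.33%), 1 pool lay far from the others of its group, with a ratio of gap to range above Dixon's 95% critical value, which chance exceeds in about 1 in 20 groups of normally distributed values. DKK1 was at 3.99 CPM in male replicate 3, against 0 to 0.662 CPM in the other male pools. SFRP1 was at 3.91 CPM in female replicate 2, against 0.762 to 1.80 CPM. ZNRF3 was at 5.81 CPM in female replicate 3, against 1.51 to 3.04 CPM. APC was at 35.8 CPM in female replicate 6, against 51.3 to 60.0 CPM. TCF7L1 was at 23.0 CPM in male replicate 5, against 11.8 to 14.1 CPM, in the library with the fewest detected genes. What set these pools apart was not tested.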

How the results depend on the processing

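The number of WNT genes called was 0 in the edgeR fit and in every repeat of that fit with 1 library left out (0 to 0). Other settings were not repeated with a library left out. The number of WNT genes called was 1 (DKK1) under DESeq2 with the library number and under DESeq2 with both numbers of the library name combined as the block. It was also 1 (DKK1) under edgeR with every gene of at least 1 count. It was 2 (DKK1 and FZD4) under DESeq2 with both numbers as separate terms, an alternative chosen after seeing the data. Of the other pathway genes, these settings called 3, 2, 2 and 4, and DESeq2 without the block called 3. Over all tested genes, the 245 calls became 125 at an FDR of 0.05, 655, 651, 743 and 837 under the same 4 settings and 739 under DESeq2 without the block. They ranged from 95 (without male replicate 3) to 364 (without male replicate 5) with 1 library left out. The number of members whose sexes did not overlap was 0 across all libraries and 2 within library numbers, a split also chosen after seeing the data.

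Without the replicate block, edgeR called 326 genes and no member, and the log2 fold change of FZD5 changed sign, to -0.0488 by edgeR and -0.0427 by DESeq2. Deviations of the sexes correlated at 0.0124, 0.369 and 0.197 for the 3 library numbers. For the 5 pairs sharing both numbers, the correlations were -0.111, 0.238, 0.351, 0.0405 and 0.279. Of the 10 libraries in those pairs, 6 correlated best with their own number and 4 did not. No share by chance was computed for this count, so whether the numbers pair the pools was not tested.

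Leaving out 1 library turned the sign of 10 genes. Their log2 fold changes ran from -0.125 to 0.00764 for GSK3B, -0.84 to 0.20 for FZD7, -0.0556 to 0.16 for FZD5, -0.14 to 0.38 for WNT6, -0.0238 to 0.30 for FZD3, -0.23 to 0.0924 for TCF7L1, -0.40 to 0.0429 for FZD6, -0.58 to 0.12 for ZNRF3, -0.25 to 0.0488 for AXIN2 and -0.0937 to 0.64 for AXIN1. Of 652 alternative fold changes, 629 kept their direction and side of the threshold, 5 became calls and 18 changed sign. Summed over all libraries, the 10 genes that turned sign had from 211 counts (FZD7) to 6593 counts (GSK3B). The cause of the new calls and sign changes was not tested, nor was the part of depth in genes near 3 counts.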

Other observations

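Several WNT genes too sparse to test had a large share of their counts in 1 pool. Male replicate 4 held 16 of the 18 WNT3 counts as well as 32 of the 43 LEF1 counts, and WNT9B, which lies 45525 bases from WNT3 on chromosome 19, was at 0.556 CPM there, inside the range of the other male pools, of which the lowest was at 0.106 CPM. Male replicate 5 held 75 of the 124 FZD9 counts, 59 of the 129 WNT16 counts and 28 of the 44 WNT4 counts. Female replicate 1 held 13 of the 14 SFRP2 counts, 5 of the 6 ROR2 counts and all 4 WNT8A counts. Among the 19 untested members with any count, female replicate 1 and male replicate 5 were each the highest library for 4. A pool holds pieces of 2 embryos, so a single embryo and both embryos of a pool cannot be told apart as the source.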
